A study of Rattus norvegicus with 22 samples.

Results

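Mcm2, Mcm3, Mcm4 and Mcm5, genes of the replicative helicase, and Asf1b, a gene of a histone chaperone, are described here in the cortex of rats 24 h after penetrating ballistic brain injury (PBBI). They are 5 of the 32545 genes of the count table. The symbols were paired with Ensembl identifiers through gene lists that the study made from these samples, which name 1822 of the identifiers. All 5 genes were listed for their rise in the injured hemisphere, so their ipsilateral values are given as a description, without p-values, and nothing is read from their calls there. The contralateral samples were not used in that choice, although they come from the same rats. An earlier contralateral result of these data on cell cycle genes was known, so the contralateral counts are not fully independent either.

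The series holds 22 libraries from 11 adult male Sprague-Daley rats, spelled as in the labels, with 1 ipsilateral (right) and 1 contralateral cortical sample of each rat. The 6 PBBI rats (81, 83, 85, 88, 90 and 96) received a right frontal injury from a probe with a balloon that was inflated in the brain and left a cavity. The 5 sham rats (82, 84, 86, 91 and 94) had the craniectomy but not the probe. The sample titles are not uniform, and only both samples of rat 81 and the contralateral sample of rat 82 carry the letters PFC. The part of this label difference in the levels was not tested, and in rat 81 it cannot be told apart from the rat itself. All rats of both groups carried electrodes implanted earlier for EEG recording, and the tissue was not sorted into cell types. In such bulk tissue, more cells that express a gene and more RNA of it per cell cannot be told apart.

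MCM2 to MCM7 form a ring of 6 different subunits that is loaded on replication origins in G1 phase and, once joined by CDC45 and the GINS complex, unwinds DNA ahead of the replication fork. ASF1B is the form of the chaperone ASF1 that is tied to dividing cells, and it carries histones H3 and H4 to and from the moving fork. Their genes are copied mainly when cells prepare to divide, many of them under E2F transcription factors, and most neurons of the adult cortex no longer divide. After brain injury, microglia, astrocytes, oligodendrocyte precursors, vascular cells and incoming blood cells can divide.

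The promoters are shown because all 5 genes were higher after injury ipsilaterally, and they run from 250 bases before to 50 bases after the RefSeq start of each gene on the assembly GRCr8. Mcm2 lies at chr4:122918045-122918344 on the minus strand, Mcm3 at chr9:30733697-30733996 on the minus strand, Mcm5 at chr19:13488563-13488862 on the plus strand and Asf1b at chr19:41100303-41100602 on the minus strand. Capitals mark matches to the E2F-type motifs TTTCCCGC, TTTCGCGC, TTTGCCGC or TTTGGCGC on either strand, and overlapping matches run together.
Mcm2: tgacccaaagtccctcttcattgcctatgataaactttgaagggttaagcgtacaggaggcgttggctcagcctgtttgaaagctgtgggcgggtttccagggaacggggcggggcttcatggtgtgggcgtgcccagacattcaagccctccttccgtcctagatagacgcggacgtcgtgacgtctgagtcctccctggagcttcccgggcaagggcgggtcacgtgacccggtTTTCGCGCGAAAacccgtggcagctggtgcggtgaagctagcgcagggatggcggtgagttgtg
Mcm3: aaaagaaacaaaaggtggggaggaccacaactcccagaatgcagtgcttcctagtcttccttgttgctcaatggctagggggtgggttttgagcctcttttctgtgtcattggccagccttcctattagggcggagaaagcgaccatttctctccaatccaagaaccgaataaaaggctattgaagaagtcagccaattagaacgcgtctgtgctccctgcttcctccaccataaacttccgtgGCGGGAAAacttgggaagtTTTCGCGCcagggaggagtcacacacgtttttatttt
Mcm5: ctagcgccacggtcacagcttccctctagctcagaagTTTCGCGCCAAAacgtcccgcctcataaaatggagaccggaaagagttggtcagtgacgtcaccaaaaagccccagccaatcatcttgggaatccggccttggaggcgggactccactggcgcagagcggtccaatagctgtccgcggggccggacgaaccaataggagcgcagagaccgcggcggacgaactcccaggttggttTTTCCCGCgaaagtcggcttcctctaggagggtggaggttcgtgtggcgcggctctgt
Asf1b: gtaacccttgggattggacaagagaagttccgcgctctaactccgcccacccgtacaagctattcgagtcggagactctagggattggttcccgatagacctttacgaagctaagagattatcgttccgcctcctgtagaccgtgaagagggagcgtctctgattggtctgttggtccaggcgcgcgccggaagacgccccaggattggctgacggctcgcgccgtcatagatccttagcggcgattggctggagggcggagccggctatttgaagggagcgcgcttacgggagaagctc
Mcm2 held 2 overlapping matches at positions -14 and -10 relative to the start, and Mcm3 held 2, at -6 and 14. Mcm5 held 3, an overlapping pair at -213 and -209 and a match at -8. No match to these letters lay in the window of Asf1b. Of 33469 promoters of this length in the table, 2.14% held such a match. The letters CCAAT, on either strand, occurred 3 times in Mcm3, 3 times in Mcm5 and 5 times in Asf1b, were not found in Mcm2, and occurred in 37.5% of all promoters. Of the 5 genes, 4 matched an entry of the table, and Mcm4 is named only.

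In sham cortex the 5 genes were expressed at low and unequal levels. Per kb of gene length, and with CPM (counts scaled to library size) after TMM normalization as the level, the mean contralateral level of sham rats was 3.26 for Mcm4, 1.71 for Mcm2, 0.403 for Mcm3, 0.363 for Mcm5 and 0.217 for Asf1b. Among the 16587 genes kept by the filter for low counts, of 32545 in the series, 41.0% lay below Mcm4 and 30.6% below Mcm2. The values were 14.3% below Mcm3, 13.4% below Mcm5 and 9.24% below Asf1b. In the ipsilateral PBBI samples these percentages were 60.0%, 52.4%, 43.4%, 47.9% and 37.0%. The spread of Mcm3 and Mcm5 over sham rats overlapped, so their order is not resolved. Asf1b rested on 12 to 30 counts in each sham sample, and all of its 22 counts were even, as were 77 of the 110 counts of the 5 genes. The cause of the even counts was not tested, and they need not be independent fragments.

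Mcm2 (ENSRNOG00000016316), whose product sits in the helicase ring and also binds histones H3 and H4, was raised in the injured hemisphere. Its ipsilateral level in the PBBI rats, in the order 81, 83, 85, 88, 90 and 96, was 18.4, 15.2, 18.7, 20.3, 21.7 and 28.2 CPM. In the ipsilateral sham samples, in the order 82, 84, 86, 91 and 94, it was 5.03, 4.20, 5.77, 3.66 and 6.29 CPM. Every ipsilateral PBBI sample lay above all 16 other samples, of which the highest was the contralateral sample of PBBI rat 81. Its mean was 4.99 CPM ± 1.08 (SD, n = 5) for sham and 20.4 ± 4.40 (SD, n = 6) for PBBI, and the log2 fold change was 2.03 (standard error 0.238).

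Mcm3 (ENSRNOG00000012543) encodes the ring subunit that lies beside MCM5. Its ipsilateral level in the 6 PBBI rats, in the same order, was 13.7, 7.06, 4.93, 13.6, 15.0 and 16.7 CPM. In the ipsilateral sham samples it was 1.46, 1.25, 0.909, 1.19 and 1.48 CPM. The groups did not overlap in this hemisphere, but rats 83 and 85 stood at less than 8 CPM while the other 4 PBBI rats stood above 13 CPM. The log2 fold change was 3.23 (standard error 0.361), from a mean of 1.26 CPM ± 0.232 (SD, n = 5) in sham to 11.8 ± 4.70 (SD, n = 6) in PBBI.

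Mcm4 (ENSRNOG00000001833), which belongs to the catalytic core of the helicase with MCM6 and MCM7, had the highest level and the smallest fold change of the 5 genes. Its ipsilateral level was 32.0, 24.6, 27.6, 30.5, 33.3 and 30.0 CPM in the PBBI rats. It was 20.4, 11.3, 14.9, 10.6 and 8.13 CPM in the sham rats. The groups did not overlap, and the PBBI samples spread less around their mean of 29.7 CPM ± 3.12 (SD, n = 6) than the sham samples around 13.1 ± 4.76 (SD, n = 5). The log2 fold change was 1.18 (standard error 0.241).

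Mcm5 (ENSRNOG00000014336), whose product forms with MCM2 the gate through which DNA enters the ring, had the largest log2 fold change of the 5 genes, 3.96 (standard error 0.356). Its ipsilateral level was 17.8, 8.75, 11.3, 16.9, 17.3 and 23.4 CPM in the PBBI rats. It was 1.62, 0.912, 0.642, 0.824 and 1.09 CPM in the sham rats. The lowest PBBI sample, that of rat 83, was thus well above the highest sham sample of this hemisphere. The means were 15.9 CPM ± 5.22 (SD, n = 6) and 1.02 ± 0.374 (SD, n = 5).

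Asf1b (ENSRNOG00000005115), the histone chaperone gene, had a log2 fold change of 3.65, with a standard error of 0.438, from ipsilateral means of 0.360 CPM ± 0.166 (SD, n = 5) for sham and 4.51 ± 1.79 (SD, n = 6) for PBBI. Its ipsilateral level was 3.95, 2.23, 6.19, 4.43, 3.26 and 6.98 CPM in the PBBI rats, from 152 to 516 counts. It was 0.221, 0.342, 0.588, 0.190 and 0.461 CPM in the sham rats, from 12 to 28 counts. Rats 96 and 85 were the highest here, whereas rat 85 was the lowest of the 6 for Mcm3.

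All 5 genes passed an adjusted p of 0.05 in the edgeR quasi-likelihood test ipsilaterally, where 4.09% of the 16104 genes tested did so with a higher level in PBBI, and in all 5 every PBBI rat lay above every sham rat, as in 3.50% of genes. The genes were chosen from this comparison, so nothing follows from these counts. Without sham rat 84 or without sham rat 91, 4 of the 5 passed, and the gene lost was Mcm4. The median log2 fold change over all genes was -0.02. Against all 16 other samples, all 6 ipsilateral PBBI samples were higher for Mcm2 and Mcm4. Only 4 were for Mcm3, and 5 each for Mcm5 and Asf1b, where contralateral rat 81 was the highest of the 16.

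**Figure D1:**
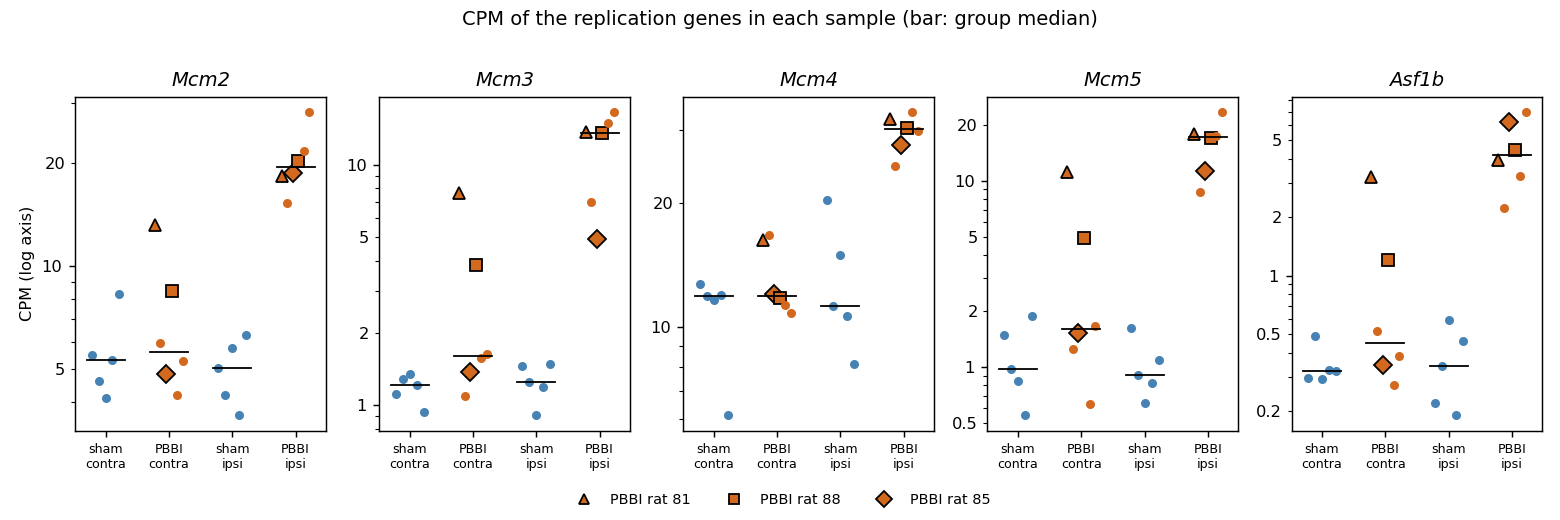
CPM of each gene in each of the 22 samples on a log axis, by treatment and hemisphere, with a bar at the group median and the samples of PBBI rats 81, 88 and 85 marked. The ipsilateral PBBI group has the highest median in every panel, and rats 81 and 88 are the highest contralateral samples for Mcm2, Mcm3, Mcm5 and Asf1b.

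Inflammatory and glial markers could be counted almost only where the study's lists of changed genes pair them with an identifier, so they are no independent evidence of direction. Their summed ipsilateral levels overlapped between PBBI and sham for macrophages and microglia and for neutrophils, and did not overlap for reactive astrocytes and Vwf. The summed level of 4 paired reactive astrocyte markers of 9 listed (Gfap, Vim, Lcn2 and Cd44) was 2290 to 7596 CPM in PBBI and 424 to 1003 in sham. For macrophages and microglia (7 paired of 15, with Ccr2 at 0 in at least 1 sample of the series) it was 222 to 982 CPM in PBBI and 123 to 267 in sham. Macrophages and microglia are the phagocytes of injured brain, and neutrophils arrive with the blood. For neutrophils (7 of 9, with Cxcr2 and Elane at 0 in at least 1 sample) it was 34.1 to 254 CPM in PBBI and 10.4 to 62.2 in sham. Vwf, the only vascular marker of 9 that was paired, stood at 23.3 to 49.4 CPM in PBBI and 10.4 to 19.7 in sham. None of the 6 oligodendrocyte precursor markers and none of the 8 cortical neuron markers was paired with an identifier, so the cortical origin of the tissue was not checked, and the part of these cell types in the rise of the 5 genes was not tested.

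The ipsilateral library of PBBI rat 85 stood apart from its group. Its mean correlation with the other 5 libraries was 0.835, against 0.933 to 0.943 for those 5. It was the lowest of the 6 for Mcm3, and it had only rat 83 below it for Mcm4 and Mcm5, and only rat 96 above it for Asf1b. Of 51 other genes of replication and division, it was the lowest in 25 (49.0%), whose median length was 3000 bases, and the highest in 8 (15.7%), whose median length was 1238 bases. Over all 16104 genes tested it was the lowest in 41.2% and the highest in 33.1%, with median lengths of 2916 and 1568 bases. Among the 5 genes, Asf1b is the shortest with 1586 bases, and the MCM genes have 2932 to 3339 bases. The part of gene length in the levels of rat 85 was not tested. Rat 83 had the lowest ipsilateral level of Mcm2, Mcm4, Mcm5 and Asf1b among the 6 PBBI rats, and was the lowest in 14 of the 51 genes (27.5%) and in 12.8% of all genes tested.

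Contralaterally, the question was whether the injury changed these genes on the side that the probe did not reach. No gene of the 5 passed the adjusted threshold. The log2 fold changes of PBBI against sham were 1.63 (standard error 0.670) for Mcm5, 1.53 (0.626) for Asf1b, 1.28 (0.484) for Mcm3, 0.33 (0.313) for Mcm2 and 0.28 (0.209) for Mcm4, and each had an adjusted p of 1.00 in edgeR. With limma voom the estimates were 1.01 for Mcm5, 0.59 for Asf1b, 0.88 for Mcm3, 0.36 for Mcm2 and 0.07 for Mcm4, and with the prior of DESeq2, which shrinks fold changes, they were 0.40, 0.38, 0.47, 0.19 and 0.20. Unadjusted, p was 0.0193 for Mcm3, 0.0293 for Mcm5, 0.0293 for Asf1b, 0.205 for Mcm4 and 0.310 for Mcm2 in edgeR. An unadjusted p under 0.05 with a higher level in PBBI was thus found in 3 of the 5 genes, against 1.28% of the 15907 genes tested. Of those 15907 genes, edgeR called 0 at an adjusted p of 0.05, with 366 (2.30%) at an unadjusted p under 0.05, DESeq2 called 3 (0.0189%), DESeq2 with its prior 0 and limma voom 1 (0.00629%). The median log2 fold change was 1.28 over the 5 genes and -0.01 over all genes.

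In an exact two-sided permutation test of mean log2 CPM over the 462 splits of 11 rats, p was 0.0779 for Mcm3, 0.188 for Asf1b, 0.195 for Mcm5, 0.251 for Mcm4 and 0.450 for Mcm2, where the smallest p possible was 0.00216. No gene separated all PBBI from all sham rats contralaterally, and 0.0943% of all genes did so.

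The contralateral difference rested mostly on rats 81 and 88. Contralateral Mcm5 was 11.2 CPM in rat 81 and 4.95 in rat 88, and 1.24, 1.52, 0.632 and 1.67 in PBBI rats 83, 85, 90 and 96. The 5 sham rats had 1.48, 0.981, 0.839, 0.551 and 1.88 CPM, so the other 4 PBBI rats lay within the sham range. For Mcm3, rats 81 and 88 had 7.68 and 3.83 CPM, the other 4 PBBI rats 1.10, 1.38, 1.57 and 1.64, and the sham rats 1.11, 1.29, 1.35, 1.22 and 0.942. Here 5 of the 6 PBBI rats were above every sham rat, with rats 85, 90 and 96 close to the sham range.

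Asf1b had 3.23 CPM in rat 81 and 1.21 in rat 88, 0.520, 0.346, 0.273 and 0.383 in the other 4 PBBI rats and 0.297, 0.490, 0.292, 0.324 and 0.322 in the sham rats. Mcm2 had 13.2 CPM in rat 81 and 8.46 in rat 88, 5.94, 4.84, 4.19 and 5.29 in the other 4 PBBI rats, and 5.49, 4.61, 4.12, 5.31 and 8.28 in the sham rats. For Mcm2, rat 88 was therefore close to sham rat 94. Mcm4 did not follow this pattern, with 16.3 CPM in rat 81, 16.8 in rat 83, 12.0, 11.8, 11.3 and 10.9 in rats 85, 88, 90 and 96, and 12.7, 11.9, 11.6, 12.0 and 6.11 in the sham rats. Rats 81 and 88 were the highest of the 11 contralateral samples in 4 of the 5 genes, against 4.64% of all genes, and these rats were singled out after their values were seen.

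Without rats 81 and 88 the contralateral log2 fold changes were 0.26 for Mcm3, 0.22 for Mcm4, 0.14 for Mcm5, 0.13 for Asf1b and -0.14 for Mcm2, with 0 of 5 genes at an unadjusted p under 0.05 in edgeR. Without rat 81 alone they were 0.81 for Mcm5, 0.69 for Mcm3, 0.66 for Asf1b, 0.20 for Mcm4 and 0.04 for Mcm2. Reactive astrocyte markers were highest in the same samples, with a summed level of 4477 CPM in rat 81 and 3381 in rat 88, against 530 to 2044 in the other 9 contralateral samples. None of the other lists reported here set both samples apart, and Vwf was above the other 9 only in rat 81. Lcn2 is counted in both the astrocyte and the neutrophil sums, and no sum is split by gene here. The summed level of macrophage and microglia markers was 180 CPM in rat 81 and 181 in rat 88, within the 134 to 265 of the other 9. Neutrophil markers (25.7 and 22.1 CPM, against 12.3 to 61.5) also lay within the range of the others. Vwf was 36.6 CPM in rat 81 and 18.4 in rat 88, against 8.51 to 21.97. The part of astrocyte and vascular cells in the contralateral levels of the 5 genes was not tested.

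**Figure D2:**
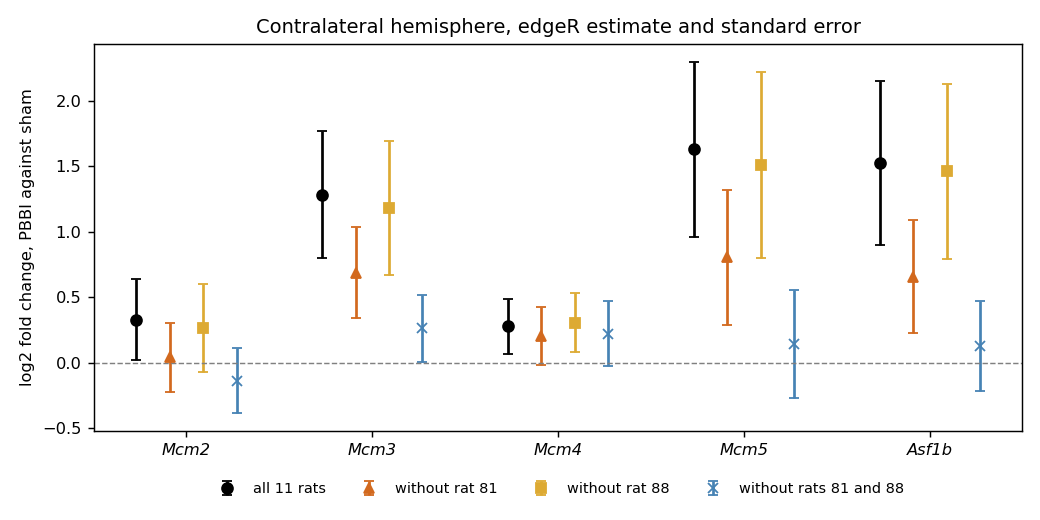
Contralateral log2 fold change of PBBI against sham for each gene from edgeR (points) with its standard error (bars), with all 11 rats and without rat 81, rat 88 or both. With both left out, the estimates lie between -0.14 for Mcm2 and 0.26 for Mcm3.

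Within each PBBI rat, the ipsilateral level exceeded the contralateral level for all 5 genes in 6 of 6 rats, as it did in 10.7% of genes. The ratio of the hemispheres was 1.59 to 27.4 for Mcm5, 1.22 to 18.2 for Asf1b, 1.79 to 10.2 for Mcm3, 1.39 to 5.34 for Mcm2 and 1.47 to 2.94 for Mcm4. Rat 81 had the lowest ratio for every gene but Mcm4, where rat 83 was lowest. In sham rats the ratio was 0.576 to 1.496 for Mcm5, 0.587 to 2.02 for Asf1b, 0.674 to 1.57 for Mcm3, 0.689 to 1.401 for Mcm2 and 0.888 to 1.60 for Mcm4, on both sides of 1 for each gene. In 1.83% of genes the ipsilateral sample was higher in all 5 sham rats.

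With the rat as a block, since the samples of a rat are paired, the log2 difference between ipsilateral and contralateral PBBI samples was 2.78 for Mcm5, 2.69 for Asf1b, 2.30 for Mcm3, 1.65 for Mcm2 and 1.20 for Mcm4. Without the block it was 2.17, 2.19, 2.04, 1.56 and 1.18. The difference between the hemispheres' injury effects, with the block, was 2.88 for Mcm5, 2.70 for Asf1b, 2.21 for Mcm3, 1.79 for Mcm2 and 0.95 for Mcm4 on the log2 scale, and is given without a test because the ipsilateral samples chose the genes.

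**Figure D3:**
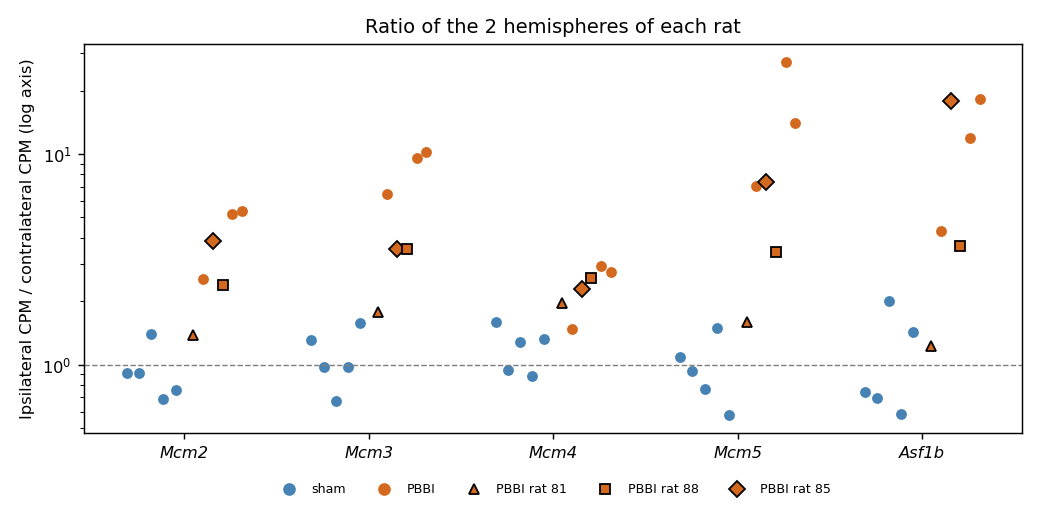
Ratio of ipsilateral to contralateral CPM in each rat on a log axis, with sham and PBBI rats side by side for each gene and a dashed line at 1. All PBBI ratios lie above 1, with rat 81 between 1.22 for Asf1b and 1.96 for Mcm4, and sham ratios lie on both sides of it.

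The ring holds its subunits in equal numbers. The RNA levels of the 4 MCM genes, per kb, were closer to equal in the ipsilateral PBBI samples than in the sham samples. Ipsilaterally this follows from the unequal fold changes by which the genes were chosen, and it was not tested. Mcm6 was measured but is not part of this comparison. Evenness did not always go with the summed level of the 4 genes. That sum was 19.2 CPM per kb in ipsilateral rat 85 and 15.1 in contralateral rat 81, where the levels were more even. In the ipsilateral sham samples the highest of the 4 was 7.09 to 22.1 times the lowest, and contralaterally in sham it was 7.89 to 20.6 times. In the ipsilateral PBBI samples this ratio was 2.05, 3.07, 4.92, 1.97, 1.95 and 1.58 in rats 81, 83, 85, 88, 90 and 96. These PBBI samples did not overlap with the sham samples of either hemisphere, and rat 85, with its low Mcm3, was the least even of the PBBI samples. Contralaterally the ratio was 1.86 in rat 81 and 2.70 in rat 88, and 13.4, 7.63, 17.0 and 6.16 in rats 83, 85, 90 and 96.

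Mcm4 supplied 62.1% ± 9.06 (SD, n = 5) of the summed level per kb of the 4 genes ipsilaterally with sham surgery, against 37.5% ± 5.10 (SD, n = 6) with PBBI. The share of Mcm5 was 5.22% ± 1.35 (SD, n = 5) in sham and 20.3% ± 2.82 (SD, n = 6) in PBBI, and that of Mcm3 7.22% ± 2.04 and 16.1% ± 4.04. The share of Mcm2 was 25.5% ± 7.12 in sham and 26.0% ± 2.85 in PBBI. Mcm4 was the highest of the 4 in 21 samples, and in the contralateral sample of sham rat 94 Mcm2 was. These shares follow from the fold changes by which the genes were chosen and are not tested. The RefSeq table lists pseudogenes of Mcm2 and Mcm4, but the reads were counted on genes of Rnor 6.0. Whether reads of these 2 genes were split between copies was not tested. How reads with several alignments were counted is not given in the sources used here.

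**Figure D4:**
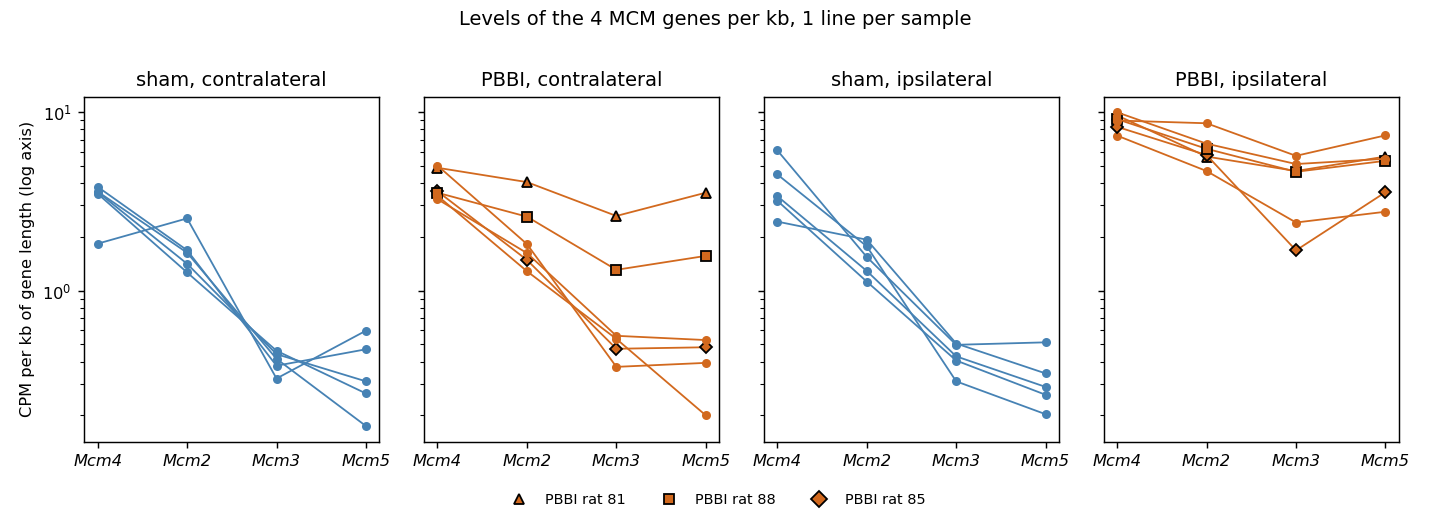
CPM per kb of gene length of Mcm4, Mcm2, Mcm3 and Mcm5 in each sample on a log axis, with a panel for each group and a line for each sample. Lines fall steeply from Mcm4 to Mcm5 in sham samples other than the contralateral sample of rat 94, where Mcm2 is highest. The lines are flatter in ipsilateral PBBI samples and in the contralateral samples of rats 81 and 88.

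Across the 6 ipsilateral PBBI rats, log2 CPM of the 10 pairs of genes correlated with a Pearson r of 0.10 to 0.87 and a median of 0.68, and 0 of 10 pairs had an adjusted p of 0.05 or less in exact permutation tests. The highest were Mcm3 with Mcm5 (r = 0.87, rho = 0.89, exact p = 0.0375, adjusted 0.176) and Mcm2 with Mcm5 (r = 0.87, rho = 0.66, exact p = 0.0292, adjusted 0.176). Mcm3 with Asf1b was the lowest (r = 0.10, rho = 0.20, exact p = 0.857), and r was 0.64 without rats 83 and 85. For each pair without the 2 rats farthest from the median of its first gene, in the order Mcm2, Mcm3, Mcm4, Mcm5 and Asf1b, r was -0.71 to 0.89. Few rats remain in these values, and they depend on which gene comes first.

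Contralaterally in the 6 PBBI rats, r was 0.27 to 1.00 with a median of 0.92, and 6 of 10 pairs, those without Mcm4, had an adjusted p of 0.05 or less in exact permutation tests of r. For Spearman's rho 1 of 10 did, and the other 5 of those pairs had adjusted p of 0.146 to 0.403 in exact permutation tests. The closest pair was Mcm2 with Asf1b (r = 0.997, rho = 1.00, exact p = 0.00139, the smallest possible over the 720 orders, adjusted 0.0139). Without rats 81 and 88 its r was 0.99, over rats 83, 85, 90 and 96 only, where Asf1b had 16 to 28 counts. Over all 11 contralateral samples r of this pair was 0.84, and 0.16 without rats 81 and 88. In the 6 PBBI rats the relation of the 3 pairs with Mcm3 rested on rats 81 and 88. Without these rats r was -0.67 for Mcm2 with Mcm3, -0.78 for Mcm3 with Asf1b, and -0.14 for Mcm3 with Mcm5, and it was 0.56 for Mcm5 with Asf1b and 0.67 for Mcm2 with Mcm5. Over all 11 contralateral samples 6 of 10 pairs had an adjusted p of 0.05 or less for r and 0 for rho in permutation tests. The median r of the 10 pairs there was 0.78. It was 0.19 when each pair lost the 2 samples farthest from the median of its first gene. The share of such pairs among all genes is not given here, so nothing particular to these genes is read from the counts of pairs.

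No relation between a rat's ipsilateral and contralateral levels passed a test in the 6 PBBI rats. Pearson's r was -0.27 for Mcm2 (rho -0.49), 0.46 for Mcm3 (rho 0.49), -0.43 for Mcm4 (rho -0.43), 0.26 for Mcm5 (rho 0.43) and -0.11 for Asf1b (rho -0.09), and the smallest adjusted p over the 5 genes was 0.788 for r and 0.524 for rho in exact permutation tests.

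Over the 22 samples, with each of the 4 group means subtracted, the genes most like the mean standardised log2 CPM of the 5, among 12350 genes, were Top2a (r = 0.83), Vim (0.82), Ect2 (0.82), LOC100910255 (0.81) and Hspb1 (0.79). Top2a encodes a topoisomerase of dividing cells and Ect2 a regulator of cytokinesis, while Vim encodes the filament protein vimentin and Hspb1 a small heat shock protein. On the same scale, r of each member with the mean of the other 4 was 0.81 for Mcm5, 0.76 for Asf1b, 0.75 for Mcm2, 0.74 for Mcm3 and 0.15 for Mcm4. With group means kept, the most alike were LOC100910255 (0.97), Lgals3 (0.96), Vim (0.96), Hspb1 (0.96) and Socs3 (0.96), and 72 genes had an r of at least 0.9. These samples share their rats, and only genes with an identifier in the study's lists carry a name. The likeness was not computed without rats 81 and 88. Contralateral Top2a was 13.8 CPM in rat 81 and 8.51 in rat 88, and at most 3.19 in the other contralateral samples.

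Other genes of DNA replication and division were taken from 7 lists of 118 genes, of which 51 could be paired. Most pairs come from the study's lists of changed genes, so the ipsilateral counts, in which 33 of the 51 passed the threshold, all with a higher level in PBBI, are no independent evidence of direction. By list, 4 of 6 genes of origin licensing passed ipsilaterally, 5 of 8 of helicase activation, 4 of 8 of fork synthesis, 2 of 3 of nucleotide supply, 4 of 4 of histone chaperones and chromatin replication, 2 of 8 G1-S regulators and 12 of 14 mitosis markers.

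Among partners of the MCM ring, Mcm6, of the catalytic core, had an ipsilateral level of 17.0 CPM ± 7.50 (SD, n = 6) with PBBI and 3.89 ± 1.23 (SD, n = 5) with sham, with 3.98 in rat 85. The loading factor Cdt1 had 5.80 ± 1.77 and 0.866 ± 0.359 CPM, Cdc6 1.97 ± 0.590 and 0.400 ± 0.153, and the origin subunit Orc1 1.06 ± 0.489 and 0.144 ± 0.0844. Gmnn, the inhibitor of Cdt1, had 22.2 ± 10.3 and 9.68 ± 3.60 CPM and did not pass the threshold. Of the factors that turn the ring into an active helicase, Mcm10 passed with a log2 fold change of 3.42 and a standard error of 0.396, as did Gins1 (2.15, 0.410) and Cdc45 (1.60, 0.413), and Gins2 (1.91, 0.522) did not.

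At the fork, the sliding clamp gene Pcna (log2 fold change 0.88, standard error 0.256), the polymerase gene Pola1 (0.82, 0.284) and the flap endonuclease gene Fen1 (0.61, 0.169) did not pass. The nucleotide supply genes Tk1 (1.77, 0.260) and Rrm2 (2.73, 0.666) passed, as did Chaf1b (1.70, 0.295), of the chaperone that receives histones from ASF1, and Uhrf1 (1.36, 0.266), which couples DNA methylation to replication. The division markers Mki67 (4.25, 0.417), Top2a (3.51, 0.406), Cdk1 (3.39, 0.480) and Ccna2 (3.12, 0.381) also passed.

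Contralaterally 0 of the 48 paired genes tested passed the adjusted threshold in edgeR, 46 had a higher and 2 a lower estimate in PBBI (Fen1, -0.14, and Cdkn1a, -0.34), and 48.8% of all genes had a higher estimate. An unadjusted p under 0.05 in edgeR was found for 6 of the 48, all higher, against 1.28% of all genes tested contralaterally. Most of the 48 were paired through the study's lists of changed genes, so they are not an unselected set. The log2 fold change and unadjusted p from edgeR were 0.81 and 0.0422 for Mcm6, 1.38 and 0.0328 for Top2a, 1.18 and 0.0161 for Cdk1, 1.66 and 0.00647 for Ccna2, 1.75 and 0.00567 for Bub1b, and 1.23 and 0.0145 for Kif11. Of these, 5 are mitosis markers, whose median log2 fold change was 0.92 over 14 genes. The medians of the other lists were 0.33 over 5 genes for origin licensing, 0.37 over 7 for helicase activation, 0.39 over 8 for fork synthesis, 0.44 over 3 for nucleotide supply, 0.35 over 4 for histone chaperones and chromatin replication and 0.23 over 7 for G1-S regulators. Rats 81 and 88 were the 2 highest contralateral samples in 33 of these 48 genes, against 4.64% of all genes tested contralaterally. Without these rats, 22 of 48 genes had a higher estimate, with a median log2 fold change of -0.05. An unadjusted p under 0.05 in edgeR was then found for 1 gene, a mitosis marker with a lower estimate in PBBI.

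**Figure D5:**
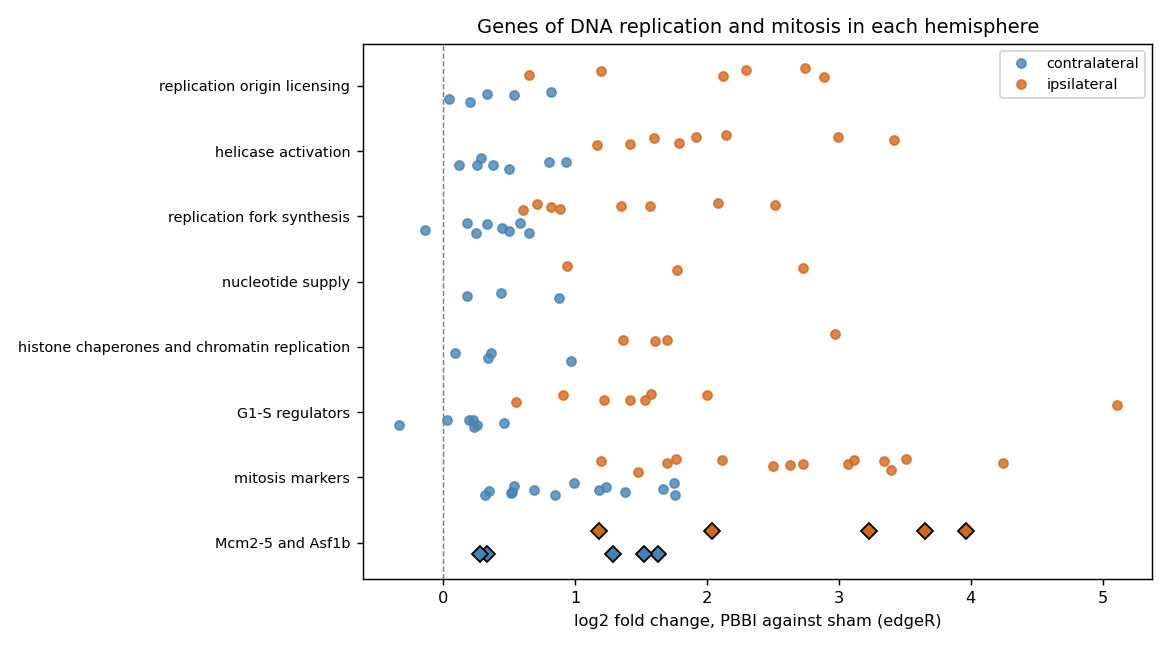
Log2 fold change of PBBI against sham for each paired gene of the 7 lists, and for the 5 genes described here (diamonds), ipsilaterally and contralaterally. Contralateral points lie at or below 1.76 and ipsilateral points at or above 0.55.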

How the data were processed

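Cortical RNA of 6 PBBI and 5 sham rats was measured in both hemispheres. The authors made stranded libraries after ribosomal depletion, aligned reads with STAR 2.4.2a to Rnor 6.0 and counted them on genes with featureCounts 1.4.3-p1, and the values they deposited are raw counts without normalization, in total 42085341 to 63412426 per sample. This depth bounds counting error only.

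Each hemisphere was fitted separately with edgeR 4.0.16 in R 4.3.3 (TMM, filterByExpr, quasi-likelihood test, Benjamini-Hochberg adjustment, threshold 0.05). Where hemispheres were compared, the fit without the rat as a block was the main setting and the fit with the block an alternative. CPM used TMM factors over all 22 samples, log2 CPM a prior count of 2, and length the deposited gene length. The 2 samples of each rat deviated together from their group means, with correlations of 0.246 to 0.758 in the 11 rats. Correlations over 11 rats used 100000 permutations. Other settings tried were DESeq2 1.42.0 (plain and with its prior), limma 3.58.1 voom with quality weights, RLE normalization, a minimum of 10 counts in each sample, no filter, a joint fit of all 22 samples and leaving out each rat, and, added after the values were seen, leaving out rats 81 and 88. Steps were tested on simulated data.

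The members and gene lists were chosen with earlier results of these data known, among them a contralateral result on cell cycle genes. Named genes were the 5 members, 20 genes of the lists and the 5 most alike on each scale, and Cdkn1a, Bub1b and Kif11 were added after their values were seen. Symbols paired more than once were not used. Surgery weeks were not used here. A list of lymphocyte markers is not reported here.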

Additional observations from a re-analysis of the deposited data

Results flagged for a closer look

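Of 20 sets of 5 or 6 samples, 1 for each gene and group, 3 held a sample far from the others by Dixon's criterion, where chance flags about 1 in 20. Mcm4 in the contralateral sample of sham rat 94 was 6.11 CPM, against 11.6 to 12.7 in the other 4 sham rats. Asf1b in the contralateral sample of PBBI rat 81 was 3.23 CPM, against 0.273 to 1.21 in the other 5 PBBI rats. Asf1b in the contralateral sample of sham rat 84 was 0.490 CPM, from 30 counts, against 0.292 to 0.324 in the other 4 sham rats.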

How the results depend on the processing

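Leaving out rats 81 and 88 turned the contralateral log2 fold change of Mcm2 to -0.14, reduced the members with an unadjusted p under 0.05 from 3 to 0, the pathway genes with a higher estimate from 46 to 22 and those higher with an unadjusted p under 0.05 from 6 to 0. The members with an unadjusted p under 0.05 numbered 1 with voom and 0 to 3 when a rat was left out, with 0 without PBBI rat 81 and 1 without sham rat 86. The pathway genes numbered 10 with DESeq2, 10 with DESeq2 and its prior and 4 to 11 when a rat was left out, with 10 without PBBI rat 85 or 96 and 11 without PBBI rat 90. For each pair, the 2 samples farthest from the median of its first gene were also left out. This moved the median correlation from 0.92 to 0.33 in contralateral PBBI samples and from 0.78 to 0.19 over all contralateral samples. The cause of these changes was not tested. Over all alternatives, the contralateral adjusted p was 0.364 to 1 for Mcm3, and no member or pathway gene passed contralaterally. The replicate block changed no direction in PBBI and moved the difference between the injury effects most for Asf1b, from 2.13 to 2.70, and in sham rats it turned the difference of Asf1b from 0.05 to -0.03. Without sham rat 94 the contralateral estimate was 0.53 for Mcm2 and 0.13 for Mcm4. Without sham rat 84 or 91, 4 members passed ipsilaterally. No other contralateral estimate of a member changed its direction under any setting.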
